A study of Mus musculus with 4 samples.

Results

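The ligands and receptors of axon guidance were followed in mouse embryos homozygous for a mutant allele of T (Brachyury) and in wild-type embryos. The members were taken by a rule on the gene symbol: ephrins (Efna, Efnb) and their Eph receptors (Epha, Ephb), semaphorins of classes 3 to 7 with plexins (Plxn) and neuropilins (Nrp), Slits with Robo receptors, and netrins (Ntn) with Dcc and Unc5 receptors. This gave 69 of the 36808 genes listed, 35 of them ligands and 34 receptors, in 15 families.

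The allele is named Tc. T encodes a T-box transcription factor that acts in the primitive streak, the notochord and the tail bud. RNA of whole embryos of the strain (C3H/HeH x 101/H)F1 was sequenced at E7.5 to 8.0 (called E8) and at E10.0 to 10.5 (called E10). There were 4 groups with 1 library each: wild type at E8, Tc/Tc at E8, wild type at E10 and Tc/Tc at E10. How many embryos made up a library is not stated in the sources used here. No value has a replicate error or a test, so a difference compares these libraries and not the genotypes. The level of T was 36.7 FPKM in wild type E8, 48.3 in Tc/Tc E8, 7.18 in wild type E10 and 30.4 in Tc/Tc E10, which does not check the genotype labels, since the level does not tell the alleles apart.

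Guidance ligands are secreted or membrane-bound proteins that steer growing axons and migrating cells by attraction or repulsion. Class 3 semaphorins are secreted, and most of them bind neuropilins, which signal through plexins. Most membrane-bound semaphorins bind plexins directly. Ephrins and Eph receptors signal between touching cells, in both directions. Slits repel through Robo receptors, and netrin-1 attracts through Dcc and repels through Unc5 receptors. In the early embryo, before axons grow out, the same proteins act at somite boundaries and in neural crest migration, blood vessel formation and the patterning of the neural tube.

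Levels are FPKM, which count fragments relative to transcript length and to the mapped total, so levels of different genes are on a scale per length. Of the 69 members, 55 reached 1 FPKM in 1 or more libraries. Another 10 members had an estimate but stayed under 1 FPKM, namely Epha8, Epha10, Ntn4, Ntn5, Robo4, Sema3g, Sema4f, Sema6b, Sema7a and Unc5d. These counts use the genotype tables, and a second estimate of wild type E10 put Ntn4 at 1.05 FPKM. The other 4 members, Epha6, Ntn3, Plxnb3 and Sema5b, were listed at 0 in both libraries of each genotype table and count as not estimated. In the genotype tables Epha5 and Ntn5 were estimated at E10 alone and Ephb4 at E8 alone. The members were of moderate abundance, with 38 at 5 FPKM or more, 24 at 10 FPKM or more and 7 at 20 FPKM or more in 1 or more libraries. The 7 were Efnb1, Efnb2, Ephb2, Nrp2, Plxnb2, Sema3a and Sema6a.

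**Figure D1:**
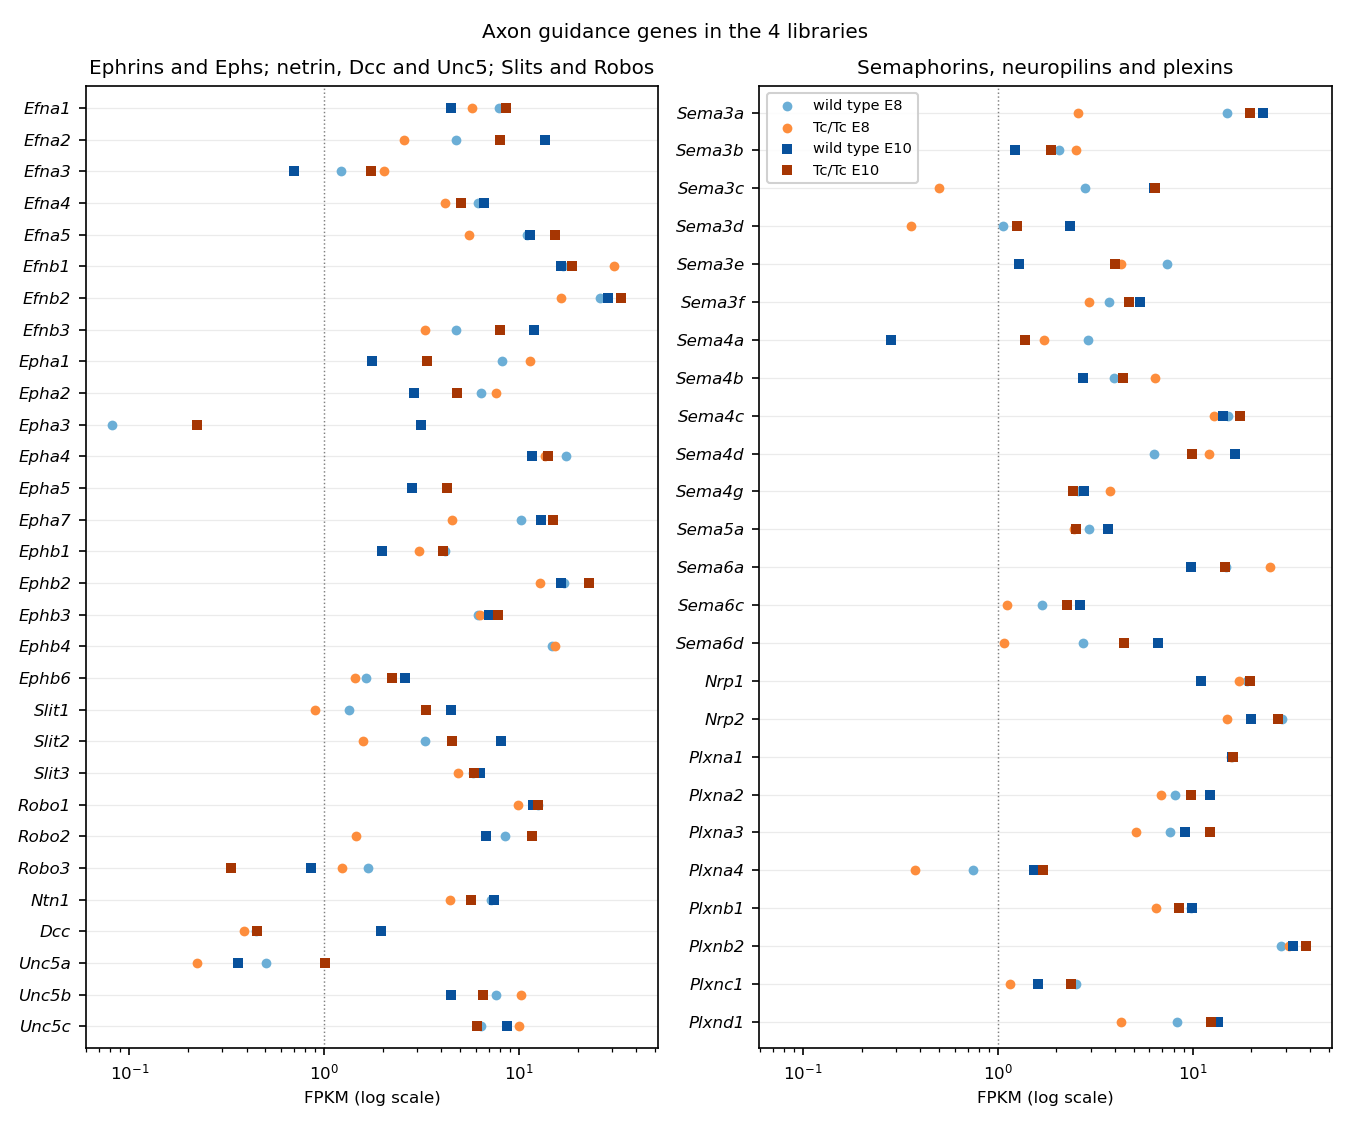
Level of each member that reached 1 FPKM (rows) in the 4 libraries, in FPKM on a log axis; each point is 1 library, the dotted line marks 1 FPKM, and values of 0 or without an estimate are not drawn. For Sema3a, Robo2, Sema3c and Epha7 the Tc/Tc E8 point lies left of the other 3 points.

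Differences are given as log2 ratios of FPKM + 1, which understate the change of low genes, for members with 1 FPKM or more in 1 or both libraries compared. A member is called higher or lower where the log2 ratio is 1 or more in size, a 2-fold difference of FPKM + 1. Folds printed for single members are ratios of FPKM without the added 1, so they are larger than the log2 ratios beside them. For scale, 3 of the 4 libraries were estimated again in another deposited table. The log2 ratio of the second to the first estimate had an SD over members of 0.0517 in wild type E8 (49 members), 0.268 in wild type E10 (50 members) and 0.177 in Tc/Tc E8 (46 members). That spread covers the estimation of 1 library and not the spread between embryos.

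At E8, 50 members could be compared between genotypes. Of these, 0 were higher in Tc/Tc, against 4.21% of all genes compared. Lower in Tc/Tc were 4 members, or 8% of those compared, against 3% of all genes. They were the ligands Sema3a and Sema3c and the receptors Robo2 and Epha7. At E10, 53 members could be compared. There 1 member was higher in Tc/Tc, the ligand Sema3e, against 4.94% of all genes, and 2 were lower, the receptors Epha3 and Dcc, against 3.08% of all genes. No member was past the size rule in both genotype comparisons. With the E10 ratios centred on the median of all genes the split was 0 higher and 2 lower, against 3.41% and 3.98% of all genes.

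**Figure D2:**
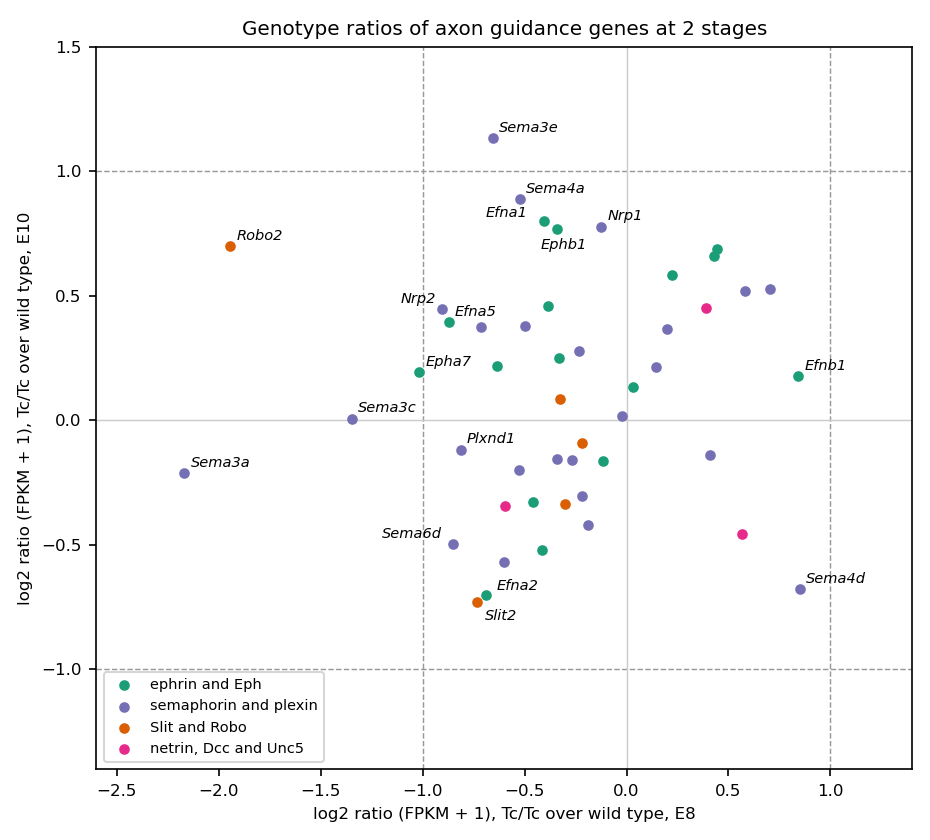
Tc/Tc over wild-type log2 ratio of FPKM + 1 for each member compared at both stages, at E8 (x axis) and at E10 (y axis), with lines at a log2 ratio of 1 in size. Sema3a, Robo2, Sema3c and Epha7 lie left of the line at E8 and Sema3e above the line at E10; Epha3 and Dcc, under 1 FPKM in both E8 libraries, are not drawn.

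Among the class 3 semaphorins, Sema3a (ENSMUSG00000028883), a secreted repellent of axons, was the most abundant in 3 of the 4 libraries. It stood at 15.1 FPKM in wild type E8, 2.57 in Tc/Tc E8, 22.9 in wild type E10 and 19.6 in Tc/Tc E10. The Tc/Tc E8 library was thus the low one, 5.86-fold below wild type of the same stage, with a log2 ratio of -2.17. At E10 the log2 ratio was -0.21, within the size rule. Sema3c (ENSMUSG00000028780), a secreted ligand that takes part in the development of the cardiac outflow tract, stood at 2.81, 0.496, 6.36 and 6.40 FPKM in the same order. Again the Tc/Tc E8 library stood lowest, with a log2 ratio of -1.35 at E8 and 0.01 at E10. With the second estimate of wild type E10 the E10 ratio was -0.49 for Sema3a and -0.37 for Sema3c. Sema3e (ENSMUSG00000063531), a ligand of plexin-D1 that acts on blood vessels, stood at 7.35, 4.30, 1.29 and 4.02 FPKM. It was lowest in wild type E10, where the other class 3 members named so far were high, and its log2 ratio was -0.66 at E8 and 1.13 at E10.

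The other 3 class 3 members that reached 1 FPKM, Sema3b, Sema3d and Sema3f, ranged from 0.359 FPKM (Sema3d in Tc/Tc E8) to 5.40 FPKM (Sema3f in wild type E10). Their log2 ratios between genotypes lay between -0.60 and 0.37. The class summed to 32.9 FPKM in wild type E8, 13.3 in Tc/Tc E8, 40.4 in wild type E10 and 38.7 in Tc/Tc E10. Sema3a made up 45.8% of that sum in wild type E8 and 19.4% in Tc/Tc E8, against 56.6% and 50.7% at E10. In Tc/Tc E8 the most abundant class 3 member was Sema3e, with 32.4% of the sum.

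Sema3a, Sema3c and Sema3e lie on the same chromosome, and their promoters are shown with that of Robo2 because 3 of these members had the largest E8 differences between genotypes and Sema3e was the member higher in Tc/Tc at E10. Promoter windows run from 250 bases before to 50 bases after a transcript start, as annotated by RefSeq on GRCm38.p6, and are written from 5′ to 3′ on the gene's strand with each CG dinucleotide in capitals. The windows are chr5:13396534-13396833 (+ strand) for Sema3a, chr5:17574566-17574865 (+ strand) for Sema3c, chr5:14025026-14025325 (+ strand) for Sema3e and chr16:75447244-75447543 (− strand) for the outermost of the 3 annotated starts of Robo2.
Sema3a: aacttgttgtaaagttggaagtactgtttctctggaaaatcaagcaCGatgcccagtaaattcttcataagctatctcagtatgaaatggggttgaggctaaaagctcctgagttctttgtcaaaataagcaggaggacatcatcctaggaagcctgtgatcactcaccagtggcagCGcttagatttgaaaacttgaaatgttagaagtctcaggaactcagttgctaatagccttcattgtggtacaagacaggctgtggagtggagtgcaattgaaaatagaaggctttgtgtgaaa
Sema3c: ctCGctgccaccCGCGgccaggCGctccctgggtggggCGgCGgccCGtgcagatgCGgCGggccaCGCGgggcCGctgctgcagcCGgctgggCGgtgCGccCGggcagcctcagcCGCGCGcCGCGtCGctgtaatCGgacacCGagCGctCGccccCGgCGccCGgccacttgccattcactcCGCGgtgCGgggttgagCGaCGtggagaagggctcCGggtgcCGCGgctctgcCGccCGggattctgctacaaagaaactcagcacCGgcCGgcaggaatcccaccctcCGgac
Sema3e: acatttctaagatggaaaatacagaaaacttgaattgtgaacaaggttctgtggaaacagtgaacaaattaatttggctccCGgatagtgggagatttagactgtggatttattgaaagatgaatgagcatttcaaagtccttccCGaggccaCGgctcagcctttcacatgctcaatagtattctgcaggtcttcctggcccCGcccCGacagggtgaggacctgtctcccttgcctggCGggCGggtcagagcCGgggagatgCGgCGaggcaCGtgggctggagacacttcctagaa
Robo2: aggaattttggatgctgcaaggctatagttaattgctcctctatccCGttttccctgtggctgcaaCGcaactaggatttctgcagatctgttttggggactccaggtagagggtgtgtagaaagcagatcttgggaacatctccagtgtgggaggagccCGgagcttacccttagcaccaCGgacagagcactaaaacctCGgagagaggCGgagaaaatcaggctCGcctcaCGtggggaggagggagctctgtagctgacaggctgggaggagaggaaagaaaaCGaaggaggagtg

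The 4 windows differed in base composition. Sema3a held 2 CG dinucleotides at 41.3% GC, Sema3c 42 at 75.7% GC, Sema3e 11 at 50.7% GC and Robo2 9 at 53.3% GC. The windows of the other annotated Robo2 starts held 17 at 65% GC and 5 at 45% GC, and which start was in use was not tested. The Sema3a and Sema3c windows stood at opposite ends of these 4, and both genes were low in the Tc/Tc E8 library. A relation of base composition to the ratios was not tested. Windows were found for 59 of the 69 members, 75 windows in all, with a median of 19 CG dinucleotides (range 2 to 56) and a median GC of 64.3%. Over the 21262 windows of protein-coding genes the medians were 13 and 56.3%. The Sema3a window was at the low end of that range and the Sema3c window near its high end.

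The T half-site TCACACCT, or its reverse complement AGGTGTGA, was searched on both strands of these windows. It was in 1 of the 75 windows of members (1.33%), against 419 of all 32851 windows (1.28%). The window belonged to 1 of the 4 annotated starts of Sema4a, at chr3:88461133-88461432 (− strand), where the match begins at base 290 and is in capitals.
Sema4a: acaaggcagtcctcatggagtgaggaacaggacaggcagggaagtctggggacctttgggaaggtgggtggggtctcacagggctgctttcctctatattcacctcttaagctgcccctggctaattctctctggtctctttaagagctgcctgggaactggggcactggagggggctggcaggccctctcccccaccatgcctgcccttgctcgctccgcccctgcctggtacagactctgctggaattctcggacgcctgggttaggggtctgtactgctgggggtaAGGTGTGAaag
The Sema4a transcript, of a membrane-bound class 4 semaphorin, stood at 2.92 FPKM in wild type E8, 1.72 in Tc/Tc E8, 0.284 in wild type E10 and 1.38 in Tc/Tc E10. Its genotype log2 ratios were -0.52 at E8 and 0.89 at E10, both within the size rule. A match describes letters in a window and is not a binding site.

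The summed level of the membrane-bound semaphorins was not low in Tc/Tc E8, as that of class 3 was. Classes 4 to 6 together summed to 54.5 FPKM in wild type E8, 67.3 in Tc/Tc E8, 60.2 in wild type E10 and 60.4 in Tc/Tc E10. Sema4c, a ligand of plexin-B2, stood at 15.2, 12.8, 14.3 and 17.6 FPKM, with log2 ratios of -0.23 at E8 and 0.28 at E10. Sema6a, a ligand of plexins A2 and A4, stood at 14.9, 24.9, 9.85 and 14.6 FPKM and was higher in the Tc/Tc library at each stage by log2 ratios of 0.70 and 0.53, within the size rule. Sema5a, the class 5 member with an estimate, stood at 2.96, 2.47, 3.69 and 2.51 FPKM. Sema6d, a ligand of plexin-A1, stood at 2.75, 1.08, 6.67 and 4.43 FPKM, with the Tc/Tc library lower at each stage by log2 ratios of -0.85 and -0.50. Sema6a and Sema6d of the same class thus lay on opposite sides of 0 at both stages.

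Sema4d, a ligand of plexin-B1, stood at 6.31 FPKM in wild type E8, 12.2 in Tc/Tc E8, 16.6 in wild type E10 and 9.98 in Tc/Tc E10. Its log2 ratio of 0.85 at E8 was the highest of the members, with Efnb1 next at 0.84. With the second estimates Sema4d stood at 0.69 and Efnb1 at 0.71. At E10 the Sema4d ratio of -0.68 rested on an estimate that did not repeat. In the second deposited estimate of the wild type E10 library Sema4d stood at 6.05 FPKM, and the E10 ratio became 0.64. No other member was past the size rule between the estimates of a library.

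Neuropilins, the binding receptors of most class 3 semaphorins, were among the more abundant members. Nrp2 stood at 28.8 FPKM in wild type E8, 15.0 in Tc/Tc E8, 19.95 in wild type E10 and 27.5 in Tc/Tc E10. Its log2 ratio of -0.90 at E8 was the lowest among the 46 members within the size rule, and at E10 the ratio was 0.45. Nrp1, which also binds vascular endothelial growth factor, stood at 19.1, 17.4, 11.1 and 19.7 FPKM, with log2 ratios of -0.13 and 0.78. The wild type E10 library was the low one for Nrp1 and the Tc/Tc E8 library for Nrp2. Nrp2 was the more abundant of the pair in 3 libraries and Nrp1 in Tc/Tc E8.

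Plexins are the signalling receptors of semaphorins. Plxnb2, the most abundant, stood at 28.4, 31.4, 32.7 and 38.2 FPKM in wild type E8, Tc/Tc E8, wild type E10 and Tc/Tc E10. Plxna1 lay between 15.7 and 16.2 FPKM in the 4 libraries, so its level was about the same at both stages and in both genotypes. Plxnd1, the receptor of Sema3e on endothelium, stood at 8.31, 4.30, 13.5 and 12.4 FPKM and was lowest in Tc/Tc E8. Its log2 ratio of -0.81 at E8 became -1.26 with the second estimates. The E10 ratio of -0.12 became -0.58 with the second estimate of wild type E10, 18.9 FPKM. The other 5 plexins that reached 1 FPKM ranged from 0.377 FPKM (Plxna4 in Tc/Tc E8) to 12.4 FPKM (Plxna2 in wild type E10), and their genotype log2 ratios lay between -0.72 and 0.38.

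**Figure D3:**
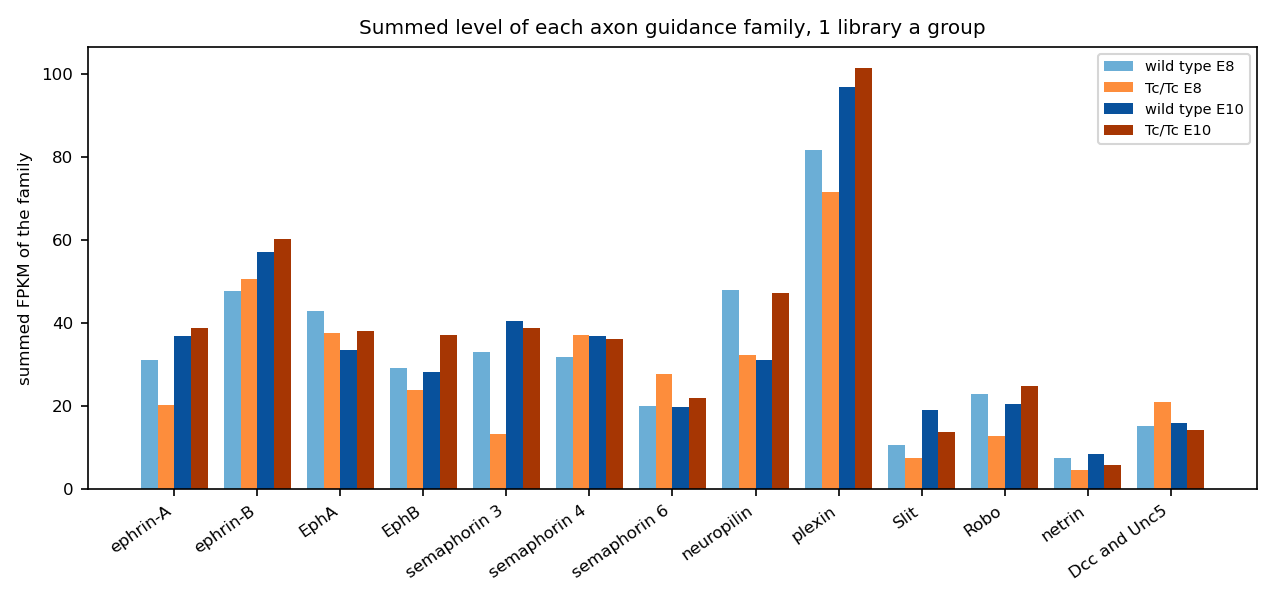
Summed FPKM of each family (members with an estimate in both genotype tables) in the 4 libraries, drawn as bars from 0. Class 3 semaphorins (13.3 FPKM) and Robo receptors (12.7 FPKM) are lowest in Tc/Tc E8, while class 6 semaphorins (27.8 FPKM) and the Dcc and Unc5 receptors (20.8 FPKM) are highest there.

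The Robo receptors Robo1 and Robo2 bind Slit ligands. Robo2 (ENSMUSG00000052516) stood at 8.46 FPKM in wild type E8, 1.46 in Tc/Tc E8, 6.78 in wild type E10 and 11.6 in Tc/Tc E10. The Tc/Tc E8 library was 5.80-fold below wild type, with a log2 ratio of -1.94. At E10 the Tc/Tc library was the higher one by 0.70, within the size rule. The difference between its 2 genotype ratios, 2.65, was the largest of the 48 members compared at both stages. Robo1, the most abundant Robo, stood at 12.6, 9.84, 11.8 and 12.6 FPKM, with log2 ratios of -0.33 and 0.09. Robo2 made up 37.0% of the summed Robo level in wild type E8 and 11.5% in Tc/Tc E8, and 33.4% and 46.9% at E10. Robo3, a receptor of commissural axons, reached 1 FPKM at E8 alone, with 1.67 FPKM in the wild-type library and 1.23 FPKM in the other.

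Of the Slit ligands, Slit3 stood at 5.81, 4.86, 6.33 and 5.88 FPKM in wild type E8, Tc/Tc E8, wild type E10 and Tc/Tc E10. Slit2, a midline repellent, stood at 3.30, 1.59, 8.13 and 4.51 FPKM. Its Tc/Tc library was lower at each stage, with log2 ratios of -0.73 at E8 and -0.73 at E10. Slit1 ranged from 0.898 FPKM in Tc/Tc E8 to 4.48 FPKM in wild type E10, with log2 ratios of -0.30 and -0.33. In the second estimate of wild type E10 it stood at 6.98 FPKM, which made the E10 ratio -0.87. The 3 Slits were thus lower in Tc/Tc than in wild type at both stages, within the size rule. For Slit3 the E10 ratio was small, at -0.09 with the first and with the second estimate of wild type E10. Slit and Robo genes together had 0 of 6 ratios above 0 at E8, against 56.5% of all genes.

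Among the ephrin-A ligands, which are anchored to the membrane by a lipid, a different member led in different libraries. Efna5 stood at 11.0 FPKM in wild type E8, 5.54 in Tc/Tc E8, 11.5 in wild type E10 and 15.4 in Tc/Tc E10. Its level was lowest in Tc/Tc E8, with a log2 ratio of -0.87, and the ratio at E10 was 0.39. Efna2 stood at 4.74, 2.57, 13.7 and 8.04 FPKM and was lower in Tc/Tc at each stage, by log2 ratios of -0.69 and -0.70. Efna1, an ephrin of endothelium among other tissues, stood at 7.94, 5.75, 4.49 and 8.55 FPKM, with log2 ratios of -0.41 and 0.80. The most abundant ephrin-A was therefore Efna5 in wild type E8 and Tc/Tc E10, Efna1 in Tc/Tc E8 and Efna2 in wild type E10. Efna3 and Efna4 ranged from 0.697 to 6.59 FPKM.

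The ephrin-B ligands, which span the membrane, moved apart at E8. Efnb1, which takes part in neural crest and skeletal development, stood at 16.7, 30.8, 16.5 and 18.8 FPKM in wild type E8, Tc/Tc E8, wild type E10 and Tc/Tc E10. Efnb2, which marks arteries and somite boundaries, stood at 26.1, 16.4, 28.6 and 33.4 FPKM. Efnb1 was thus highest and Efnb2 lowest in Tc/Tc E8, with E8 log2 ratios of 0.84 and -0.63, and Efnb1 made up 60.9% of the summed ephrin-B level there against 35.2% in wild type E8. Efnb3, a midline ephrin of the nervous system, ranged from 3.32 to 11.9 FPKM.

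Epha7 (ENSMUSG00000028289), an Eph receptor of the neural tube and other tissues, stood at 10.2 FPKM in wild type E8, 4.55 in Tc/Tc E8, 13.0 in wild type E10 and 15.0 in Tc/Tc E10. The Tc/Tc E8 library was the low one, and its log2 ratio of -1.02 was just past the size rule. In the second estimate Epha7 stood at 2.44 FPKM in Tc/Tc E8, which made the ratio -1.76. Epha3 (ENSMUSG00000052504), a receptor that binds ephrin-A5, stood at 0.0812 FPKM in wild type E8, was listed at 0 in Tc/Tc E8, and stood at 3.14 FPKM in wild type E10 and 0.223 in Tc/Tc E10. It passed 1 FPKM in wild type E10 alone, 14.1-fold above the low Tc/Tc value of that stage. The log2 ratio of Tc/Tc over wild type, of FPKM + 1, was -1.76. Epha4, which takes part in hindbrain and somite boundaries, stood at 17.4, 13.6, 11.6 and 14.0 FPKM, with log2 ratios of -0.33 and 0.25.

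Epha1 stood at 8.18 FPKM in wild type E8, 11.4 in Tc/Tc E8, 1.77 in wild type E10 and 3.37 in Tc/Tc E10. Epha2, which is expressed in the gastrulating embryo, stood at 6.39, 7.61, 2.89 and 4.83 FPKM. Both were lower at E10 than at E8 and higher in Tc/Tc than in wild type at each stage, with genotype log2 ratios between 0.22 and 0.66. With the second estimates the E8 ratio of Epha2 was 0.02. At E10 the wild-type level of Epha5 was 2.81 FPKM and its Tc/Tc level 4.27 FPKM. For E8 it had an estimate in the wild-type stage table, 5.46 FPKM, and none in Tc/Tc.

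Of the EphB receptors, Ephb2 stood at 17.1 FPKM in wild type E8, 12.9 in Tc/Tc E8, 16.5 in wild type E10 and 23.0 in Tc/Tc E10. Its log2 ratios were -0.38 at E8 and 0.46 at E10, and became -0.77 and 0.11 with the second estimates. Ephb4, the venous receptor of ephrin-B2, had a wild-type level of 14.8 FPKM and a Tc/Tc level of 15.4 FPKM at E8, where it was estimated, and was the most abundant EphB in the Tc/Tc library. Ephb1, Ephb3 and Ephb6 ranged from 1.44 to 7.83 FPKM, and their genotype log2 ratios lay between -0.34 and 0.77. No EphB receptor was past the size rule in a genotype comparison.

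Netrin-1 (Ntn1), the netrin that reached 1 FPKM, stood at 7.18 FPKM in wild type E8, 4.41 in Tc/Tc E8, 7.43 in wild type E10 and 5.65 in Tc/Tc E10. It was lower in Tc/Tc at each stage, by log2 ratios of -0.60 and -0.34. Its attractive receptor Dcc (ENSMUSG00000060534) stood at 0.449, 0.390, 1.97 and 0.453 FPKM. Dcc passed 1 FPKM in wild type E10 alone, as Epha3 did, with a log2 ratio of -1.03 and a 4.34-fold difference at E10. The repulsive receptor Unc5b stood at 7.59, 10.2, 4.48 and 6.51 FPKM and was higher in Tc/Tc at each stage, by log2 ratios of 0.39 and 0.45. Unc5c stood at 6.40, 9.96, 8.70 and 6.06 FPKM, with ratios of 0.57 at E8 and -0.46 at E10. Unc5a ranged from 0.223 to 1.01 FPKM, and its E10 ratio of 0.56 became -0.07 with the second estimate of wild type.

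Beyond the size rule, 36 of the 50 members compared at E8 had a ratio below 0, or 72%, against 43.5% of all genes compared. The median log2 ratio of the members was -0.33, against 0.06 for all genes. With the libraries set to equal totals, 39 of 50 members lay below 0, or 78%, against 66.7% of all genes, so the distance from the other genes was smaller under that scaling. Ligands had 20 of 27 ratios below 0 with a median of -0.41, and receptors 16 of 23 with a median of -0.26. At E10, 31 of 53 members lay above 0, or 58.5%, against 66.9% of all genes, with a median of 0.13, against 0.16 for all genes. The count above 0 was 26 of 53 when centred on the median and 28 of 54 with the second estimates.

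Over the 53 members with 1 FPKM or more in 1 or more libraries and an estimate in each, the Tc/Tc E8 library held the lowest value for 33, or 62.3%, against 30.8% of all genes. With equal totals it held the lowest value for 37 of 54 members, or 68.5%, against 49.1% of all genes. Of the 48 members compared at both stages, 18 lay below 0 at E8 and above 0 at E10, or 37.5%, against 26.7% of all genes, and 3 went the opposite way, or 6.25%, against 11.98%. The 3 were Sema4d, Sema4g and Unc5c, and the sign of Sema4d at E10 turned with the second estimate. Among the 18, the E10 ratios of Sema3c (-0.37), Epha7 (-0.11) and Plxna1 (-0.03) fell below 0 with the second estimates. Ephb3 then came into this group, at -0.12 at E8 and 0.03 at E10. Another 17 members, or 35.4%, lay below 0 at both stages, against 17.5% of all genes, and 10, or 20.8%, lay above 0 at both, against 43.8%. Centred on the median of all genes, 21 members lay below 0 at both, against 29.6% of all genes, and 9 above 0 at both, against 31.5%. With the same centring 15 lay below 0 at E8 and above 0 at E10, against 21.3%, and 3 the opposite way, against 17.6%.

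In wild type, 52 members could be compared between stages. Of these, 8 were higher at E10, or 15.4%, against 5.36% of all genes, and 3 were lower, against 5.78%. The higher members and their log2 ratios were Epha3 at 1.94, Efna2 at 1.35, Sema4d at 1.27, Slit1 at 1.23, Efnb3 at 1.17, Slit2 at 1.09, Dcc at 1.03 and Sema6d at 1.03. The lower members were Sema3e at -1.87, Epha1 at -1.73 and Sema4a at -1.61. With the second estimates Sema4d stood at 0.09 and Sema6d at 0.99, while Sema3c (1.33) and Plxnd1 (1.11) came past the size rule.

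In Tc/Tc, 51 members could be compared between stages. Higher at E10 were 12 members, or 23.5%, against 6.23% of all genes, and 1 was lower, against 4.45%. The highest were Sema3a at a log2 ratio of 2.53, Robo2 at 2.36, Sema3c at 2.31 and Epha7 at 1.53. These 4 are the members that were lower in Tc/Tc at E8, and both comparisons use the same Tc/Tc E8 library, so the ratios are not independent. Sema6d (1.39), Efna2 (1.34), Plxnd1 (1.34), Efna5 (1.32), Slit1 (1.20), Plxna3 (1.11), Slit2 (1.09) and Efnb3 (1.06) followed. The lower member was Epha1, at -1.50.

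The stage comparisons of the 2 genotypes share no library. Efna2, Efnb3, Sema6d, Slit1 and Slit2 were higher at E10 in both, which is 5 of the 8 called in wild type (62.5%) and 5 of the 12 in Tc/Tc (41.7%). Over all genes the shared calls were 33.0% and 28.5% of the higher calls. Epha1 was lower in both. Epha3 and Dcc stood in wild type at log2 ratios of 1.94 and 1.03 and stayed under 1 FPKM in both Tc/Tc libraries. In total 18 of the 55 members that reached 1 FPKM were past the size rule in 1 or more of the 4 comparisons, or 32.7%, against 19.7% of all genes that reached 1 FPKM.

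**Figure D4:**
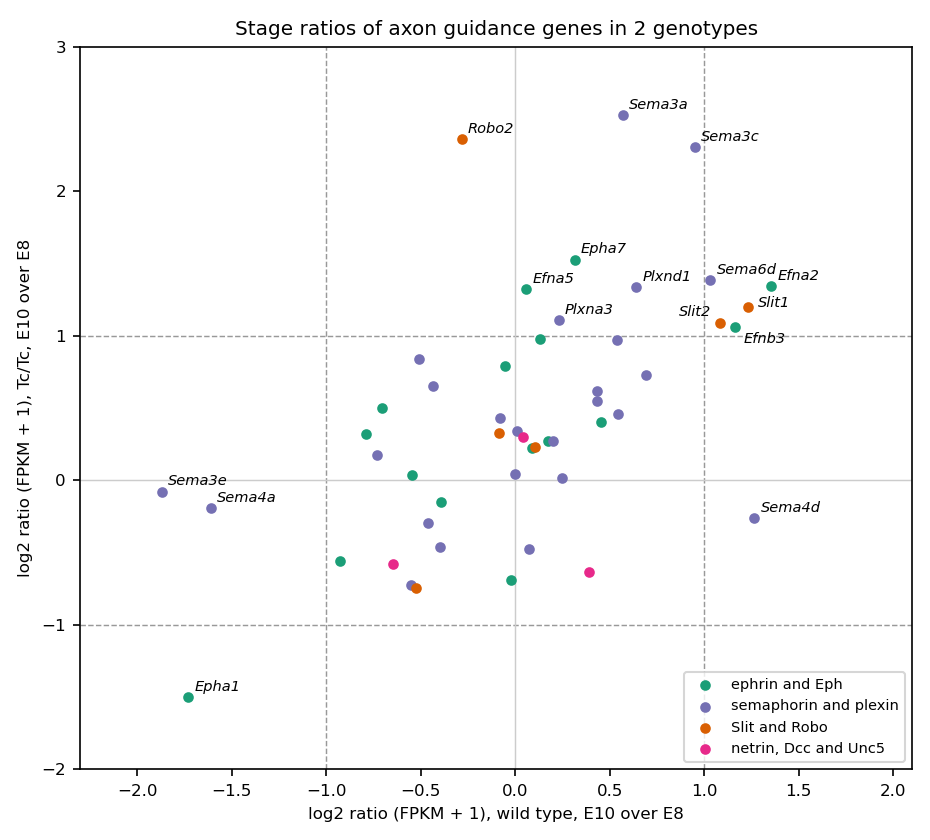
E10 over E8 log2 ratio of FPKM + 1 for each member compared in both genotypes, in wild type (x axis) and in Tc/Tc (y axis), with lines at a log2 ratio of 1 in size. Sema3a (2.53), Robo2 (2.36) and Sema3c (2.31) lie highest on the Tc/Tc axis and within the lines on the wild-type axis, and Epha1 lies low on both.

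Other genes of the same pathways were described from 3 lists: cell-surface partners outside these families, effectors of semaphorins and plexins, and effectors of Eph, netrin and Robo receptors. At E8, 47 of the 59 genes found could be compared, 0 were higher and 6 lower in Tc/Tc, or 12.8%, against 4.21% and 3% of all genes. The 3 lowest were Shh, a secreted protein of the notochord and floor plate that also attracts commissural axons, at 3.28 and 0.193 FPKM (log2 ratio -1.84), Dpysl5, a cytosolic protein of the semaphorin response family, at 25.3 and 7.57 FPKM (-1.62), and Chn1, a Rac regulator downstream of Epha4, at 45.3 and 15.9 FPKM (-1.45). The median was -0.31 and 36 of 47 lay below 0. At E10, 1 of 47 was higher (2.13%) and 2 were lower (4.26%) in Tc/Tc, against 4.94% and 3.08% of all genes, with a median of -0.07. Pak3, a kinase that acts on the cytoskeleton, stood at 2.49 and 8.53 FPKM (log2 ratio 1.45), and at 5.77 FPKM in the second estimate of wild type, which made the ratio 0.49. Srgap3, of the Slit-Robo GTPase-activating family, stood at 10.5 and 3.26 FPKM (-1.43), and Dpysl4 at 13.1 and 4.44 FPKM (-1.37). Between stages, 5 of 47 were higher at E10 in wild type (10.6%, against 5.36% of all genes) and 12 of 45 in Tc/Tc (26.7%, against 6.23%), with 0 lower in either.

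Whole embryos were sequenced, so fewer cells of a type and less RNA per cell cannot be told apart. The markers of the tissues that use these genes are given beside them. Summed levels cover only markers with an estimate in both genotype tables. They leave out Ripply2, Egfl7, Neurod1, Neurod4, Nhlh1, Pax6, Olig2 and Apoa4, while the counts at 1 stage can include them. Somite and paraxial mesoderm markers were lower in Tc/Tc for 6 of 7 compared at E8 (median log2 ratio -1.26) and 2 of 10 at E10 (-0.50), with a summed level of 55.0 FPKM in wild type E8, 16.0 in Tc/Tc E8, 66.9 in wild type E10 and 49.6 in Tc/Tc E10. Limb and trunk mesenchyme markers were lower for 6 of 11 at E8 (-1.12) and 3 of 11 at E10 (-0.34), and summed to 98.2, 57.9, 251 and 149.8 FPKM. Neural crest markers were lower for 2 of 6 at E8 (-0.55), where Foxd3 and Sox10 were listed at 0 in Tc/Tc, and for 0 of 6 at E10 (0.52), and summed to 27.5, 18.8, 32.8 and 44.2 FPKM. Endothelial markers were lower for 3 of 12 at E8 (-0.70), with Emcn listed at 0 in Tc/Tc, and 2 of 13 at E10 (0.17), and summed to 76.7, 48.5, 106 and 100.4 FPKM.

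Neuronal markers were lower in Tc/Tc for 2 of 11 at E8 (-0.33) and 13 of 18 at E10 (-1.63), with summed levels of 64.3 FPKM in wild type E8, 48.9 in Tc/Tc E8, 161 in wild type E10 and 60.4 in Tc/Tc E10, and Neurod1, Neurod4 and Nhlh1 were listed at 0 in Tc/Tc E10. Neural progenitor markers were lower for 4 of 9 at E8 (-0.77), and 6 of 13 lower with 2 higher at E10 (-0.42), and summed to 94.5, 69.6, 200.2 and 121 FPKM. The summed level of 6 of the 8 lists, those other than visceral endoderm and simple epithelium, was lower in Tc/Tc than in wild type at E8, where Sema3a, Sema3c, Robo2 and Epha7 were low. For these 6, except neural crest and endothelial, it was highest in wild type E10, where Epha3 and Dcc passed 1 FPKM. The endothelial sum without Egfl7 was 106 FPKM in wild type E10 and 100.4 in Tc/Tc E10. Egfl7 stood at 24.7 and 32.2 FPKM in these libraries, so their order depends on whether it is counted. Visceral endoderm and yolk sac markers were higher in Tc/Tc for 12 of 12 at E8 (1.67) and 13 of 13 at E10 (4.56), and summed to 1003, 3225, 19.0 and 701 FPKM, with Apoa4, Apoc2, Amn and Spink3 listed at 0 in wild type E10. Simple epithelium markers were higher for 2 of 7 at E8 (0.84) and 6 of 7 at E10 (1.68), and summed to 375, 677, 109 and 357 FPKM. The part of these shifts in the differences of the guidance genes was not tested.

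**Figure D5:**
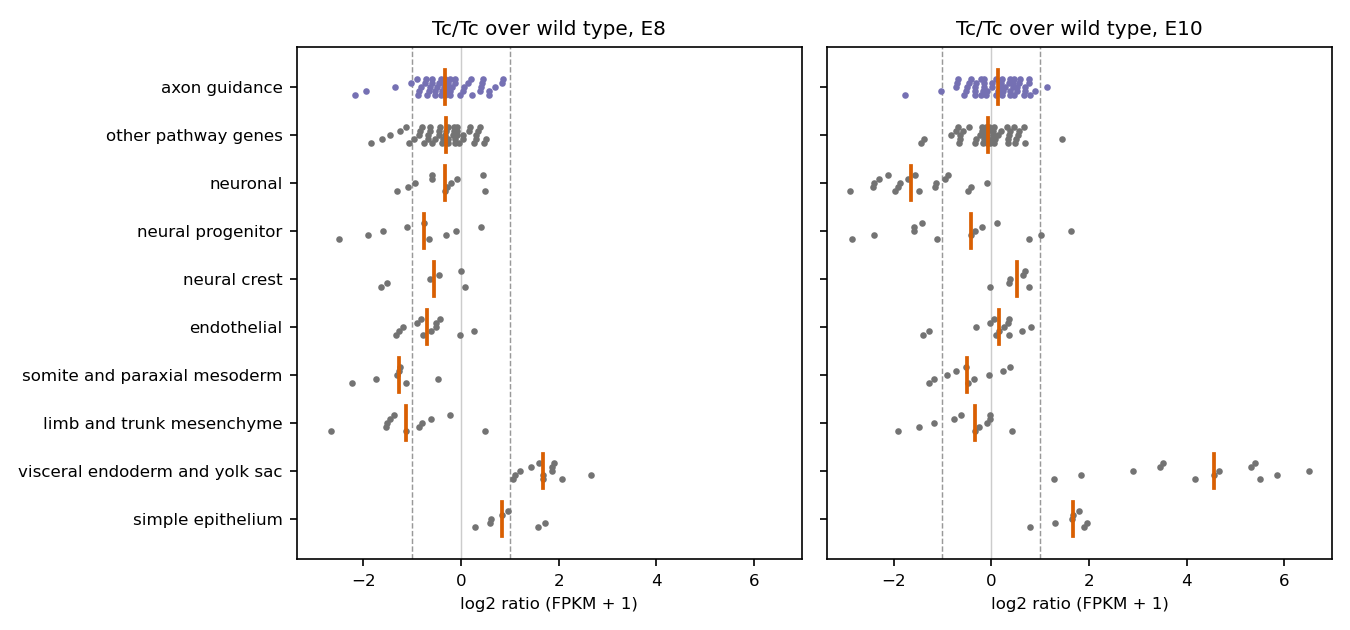
Tc/Tc over wild-type log2 ratio of FPKM + 1 at E8 and at E10 for the guidance genes, the other pathway genes and the marker lists; each point is a gene, the vertical bar is the median and dashed lines mark a log2 ratio of 1 in size. Somite markers (median -1.26 at E8), neuronal markers (-1.63 at E10) and visceral endoderm markers (4.56 at E10) lie farther from 0 than the guidance ligands and receptors (-0.33 and 0.13).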

How the data were processed

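The authors deposited 4 pairwise tables of FPKM per gene. The submitters' processing notes name Bowtie2, Cuffdiff and the build mm9, and neither versions nor annotation are given in the sources used here. Directional ScriptSeq v2 libraries were made from TRIzol-extracted total RNA, per the labels. The tables also hold the natural log of the fold, per the file headers, which served only to find genes without an estimate. Values of E8 came from the E8 genotype table and values of E10 from the E10 genotype table, so a stage ratio joins 2 tables. Second estimates came from the stage tables. The Tc/Tc stage table also has 1 column, headed wild type E10, that was not used.

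A gene at 0 in both libraries of a table has no estimate there. Ratios were log2((FPKM + 1)/(FPKM + 1)) for genes at 1 FPKM or more in 1 or both libraries, called at a size of 1, with Python 3.11.15 and pandas 2.3.3. The calculation was run on simulated data in which genes of higher level were changed by more than the size rule. That run does not cover members of low level. Groups hold 1 library, so there is no test. Total FPKM was between 598365 and 737448, and 12900 to 13583 genes reached 1 FPKM per library. Absolute depth is unknown. Values under 0.3 FPKM showed a commonest ratio of 1.02 between the E8 libraries (47 of 1752 genes) and 0.916 between the E10 libraries (42 of 1608 genes). The cell type lists lack Map2, Sox1, Tfap2a, Tfap2b and Dab2 and the pathway lists Draxin, Flrt3, Ntng1 and Mical3, which were not analysed here. Promoters came from RefSeq on GRCm38.p6, matched by symbol, and no coordinate was joined with mm9. Members and lists were chosen with earlier results of these data known. Full values are given for members past the size rule between genotypes or highest in their family, and the 3 highest and lowest past the rule among other pathway genes.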

Additional observations from a re-analysis of the deposited data

How the results depend on the processing

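No paired analysis was possible because each group has 1 library. Of 7 alternatives, a pseudocount of 0.1 FPKM gave 8 members lower at E8 (4 as reported), 5 higher at E10 (1), 5 lower at E10 in the wild-type stage comparison (3) and 2 lower in the Tc/Tc stage comparison (1), where the shares of all genes were 5.18%, 7.28%, 8.26% and 6.46%. A pseudocount of 5 FPKM gave 2 members lower at E8, 0 higher and 0 lower at E10 between genotypes, 0 higher and 0 lower in the wild-type stage comparison, and 4 higher (12 as reported) and 0 lower in the Tc/Tc stage comparison, where the shares of all genes lay between 0.753% and 2.37%. A minimum of 5 FPKM left 33 members compared between genotypes at E10, with 0 higher and 0 lower, against 5.1% and 2.47% of all genes. Sema3e, Epha3 and Dcc were under that minimum in both E10 libraries, so they were no longer compared. In the wild-type stage comparison the same minimum gave 5 of 36 higher (8 of 52 as reported), against 4.34% of all genes. Centring on the median of all genes gave 0 higher at E10, against 3.41% of all genes. The count of members higher in Tc/Tc at E8 was 0 under each of the 7 alternatives. At E8, Sema3a and Robo2 stayed lower with a pseudocount of 5 FPKM while Sema3c (-0.51) and Epha7 (-0.67) came within the size rule, and at E10 Sema3e (0.52), Epha3 (-0.64) and Dcc (-0.35) did. With equal totals Nrp2 (-1.12) and Efna5 (-1.07) were also past it at E8. Equal totals moved the median of all genes from 0.06 to -0.15 at E8 and from 0.04 to 0.28 between the Tc/Tc stages. Epha3 and Dcc were under 1 FPKM outside wild type E10, and how far depth limits them cannot be told, since absolute depth is unknown.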
